A study of Mus musculus with 7 samples.

Results

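Nuclear receptor genes were examined for JUNB regions in cells at day 1 of cardiac reprogramming. The 46 genes were chosen by name, as receptors that cross-talk with AP-1, out of 21896 protein-coding genes in the mouse table rather than by a measured value, though with earlier results of these data known. JUNB is one of the proteins that make up AP-1, and its sites were read by CUT&RUN, in which an antibody-tethered nuclease releases the DNA around a bound protein. Peaks from the 4 JUNB lists were merged into a region where they shared 1 bp or more, and each region went to the protein-coding gene whose end was nearest, up to 100 kb away, which is called its owner here. Of 12655 regions, 11011 lay within 100 kb of a gene end, and 28 of these were owned by a nuclear receptor gene. A region called in all 4 lists is called a common region.

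All libraries came from iMGT-Myh6-eGFP-MEF cells, a mouse embryonic fibroblast line with a Myh6-eGFP reporter and the inducible factor set MGT (Mef2c, Gata4, Tbx5), and all were treated with 1 µg/mL doxycycline to switch on MGT. The 2 groups were transfected with a control siRNA (siControl, n = 2) or with an siRNA against the chondroitin sulfotransferase gene Chst7 (siChst7, n = 2). The titles name siChst7, but the labels' treatment protocol lists siJunb and siH1f0 beside siControl. The 3 IgG libraries, 1 siControl and 2 siChst7, were not analysed here, and whether the authors' folds already take IgG into account is not stated in the labels. The peak lists held 6469 and 5827 peaks in siControl and 10163 and 4735 in siChst7, in replicate order, so that siChst7 replicate 1 and replicate 2 gave the longest and the shortest list. A depth of 30 M reads is given per library in the labels, but the reads behind each peak are unknown here. RNA was not analysed here, so the labelled cell type was described only by its loci: common regions were owned by 3 of 10 fibroblast marker genes, 0 of 5 cardiomyocyte, 0 of 5 macrophage, 2 of 4 endothelial and 3 of 4 epithelial marker genes. Other genes of like territory length, as defined further on, would give 1.21, 0.34, 0.51, 0.59 and 0.35 genes, so a count of 0 of 5 is near what such genes give.

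Nuclear receptors are transcription factors with a zinc finger DNA-binding domain and, in most members, a domain that binds a lipid-soluble ligand such as a steroid, a retinoid or a fatty acid. Several of them, among them the glucocorticoid and retinoic acid receptors, are known to meet AP-1 on DNA and to hold down its activity at fibroblast genes such as those of matrix proteases. Others, such as the NR4A receptors, are themselves switched on within minutes to hours of growth factor signals that also raise AP-1.

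The promoters that a JUNB peak overlapped in whole or in part are shown first, because there the region lies at or close to the start of the receptor gene. RefSeq promoters (GRCm38.p6, the assembly of mm10), each from 250 bases before to 50 bases after a start, were found for 42 of the 46 genes, 63 promoters in all. A region overlapped 4 of the 63 (6.35%), against 5.07% of 21262 promoters of protein-coding genes, and a common region overlapped 1 (1.59%), against 0.945%. The single promoter under a common region was that of Nr1d1, which encodes the haem-binding clock repressor REV-ERBα. The whole window (chr11:98775328-98775627, minus strand) lay inside the joined region and inside both siControl peaks. The siChst7 peaks covered it in part, since they began at 98775420 and 98775356 in replicate order. The summits of the 4 peaks, at 98775733 to 98775807, lay outside the window, further upstream. The other 3 were under a peak of 1 list each, and for Nr1d2 (chr14:18239057-18239244, minus strand) and Esrra (chr19:6921977-6922058, minus strand) the stretch under the peak is shown. For Nr6a1 the whole promoter is shown (chr2:38926412-38926711, minus strand). Capitals mark matches to the letters TGANTCA (the AP-1 site), TGACGTCA (the cAMP response element, CRE), AGGTCA (the core site of many receptors) or AGAACA (that of steroid receptors), searched on both strands.
Nr1d1 (4 lists): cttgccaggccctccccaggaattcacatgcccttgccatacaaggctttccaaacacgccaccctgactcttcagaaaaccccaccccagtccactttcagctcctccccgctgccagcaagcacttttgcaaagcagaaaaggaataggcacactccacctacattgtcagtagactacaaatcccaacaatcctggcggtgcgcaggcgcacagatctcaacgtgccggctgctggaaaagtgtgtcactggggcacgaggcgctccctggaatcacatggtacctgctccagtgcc
Nr1d2 (siChst7 replicate 1): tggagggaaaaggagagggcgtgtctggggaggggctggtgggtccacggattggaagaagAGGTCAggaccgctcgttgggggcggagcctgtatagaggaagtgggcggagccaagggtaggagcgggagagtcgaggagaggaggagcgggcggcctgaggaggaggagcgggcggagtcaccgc
Esrra (siControl replicate 2): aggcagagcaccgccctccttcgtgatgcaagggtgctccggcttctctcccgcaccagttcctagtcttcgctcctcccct
Nr6a1 (siControl replicate 1): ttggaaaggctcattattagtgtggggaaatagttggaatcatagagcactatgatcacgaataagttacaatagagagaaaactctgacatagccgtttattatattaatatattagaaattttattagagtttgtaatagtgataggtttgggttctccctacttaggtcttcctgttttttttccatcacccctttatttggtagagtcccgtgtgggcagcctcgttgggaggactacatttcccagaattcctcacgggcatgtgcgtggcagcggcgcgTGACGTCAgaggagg
The Nr1d1 window and the Esrra stretch held none of the 4 motifs as spelled, which says only that these letters are not there. The Nr1d2 stretch held AGGTCA, 77 bases before the start. In the Nr6a1 promoter the CRE letters began 35 bases after the start, in the part that the peak did not cover, and lay 43 bases from the edge of the peak.

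The AP-1 letters TGANTCA stood in 3 of the 63 receptor promoters (4.76%), and in 6.99% of all 21262. The CRE letters stood in 2 (3.17%), against 2.23%, AGGTCA in 12, against 14.7% of all, and AGAACA in 5 (7.94%), against 16.2%. Of the promoters with AP-1 or CRE letters, Nr6a1 was overlapped by a peak and the other 4 were not. Those 4 are shown with 17 bases on each side of the match, since they carry the letters without a JUNB peak in any list.
Esrrg (chr1:187608947-187608987, plus strand): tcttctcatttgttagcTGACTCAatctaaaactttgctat
Nr1i3 (chr1:171213844-171213884, plus strand): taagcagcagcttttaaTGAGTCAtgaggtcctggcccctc
Rorb (chr19:19001324-19001364, minus strand): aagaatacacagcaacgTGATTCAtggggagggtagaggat
Nr2e1 (chr10:42583691-42583732, minus strand): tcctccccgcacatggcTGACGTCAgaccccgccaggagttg
Over the whole genome, promoters under a common region held TGANTCA in 39 of 201 cases (19.4%) and TGACGTCA in 12 (5.97%).

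Whether receptor genes had JUNB regions of every list more or less often than all genes depended on how regions were assigned. By nearest end, common regions belonged to 3 of the 46 genes (6.52%), Nr1d1, Nr2f2 and Pparg, which together owned 5 of them, while 8.32% of all protein-coding genes owned a common region. With each region given to every gene body within 5 kb, 7 receptor genes (15.2%) had one, against 6.88% of all genes. A region in both siControl lists was owned by 4 receptor genes (8.70%), Nr1d1, Nr1d2, Nr2f2 and Pparg, against 11.0% of all genes. A region in both siChst7 lists was owned by 5 (10.9%), Nr1d1, Nr1h4, Nr2f2, Nr6a1 and Pparg, against 11.3%. A region in at least 1 list was owned by 14 (30.4%), against 25.1%, and 32 receptor genes owned none.

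Receptor genes have long territories, a territory being the length of genome within 100 kb that lies closer to the ends of that gene than to those of any other. The median territory was 104.1 kb for the 46 genes, against 46.4 kb over all protein-coding genes. Territories of the 46 genes ran from 6.2 kb for Esrra to 351.8 kb for Hnf4g. Other genes of like territory length (10 classes) would give 5.12 genes with a common region, against the 3 counted, 6.67 with a region in both siControl lists, against 4, and 6.90 with a region in both siChst7 lists, against 5. For a region in at least 1 list they would give 14.26, against 14. These are descriptions without a test. Single libraries moved the group counts. Without siControl replicate 1, or without siControl replicate 2, a region in the remaining siControl list was owned by 8 receptor genes (17.4%). Of all genes 14.7% and 16% owned one, and the territory-matched numbers were 8.82 and 9.4. Without siChst7 replicate 2 the siChst7 count was 12, against 21.9% of all genes and a territory-matched number of 12.63. Without siChst7 replicate 1 it was 5, against 12.5% of all genes and a territory-matched number of 7.58.

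**Figure D1:**
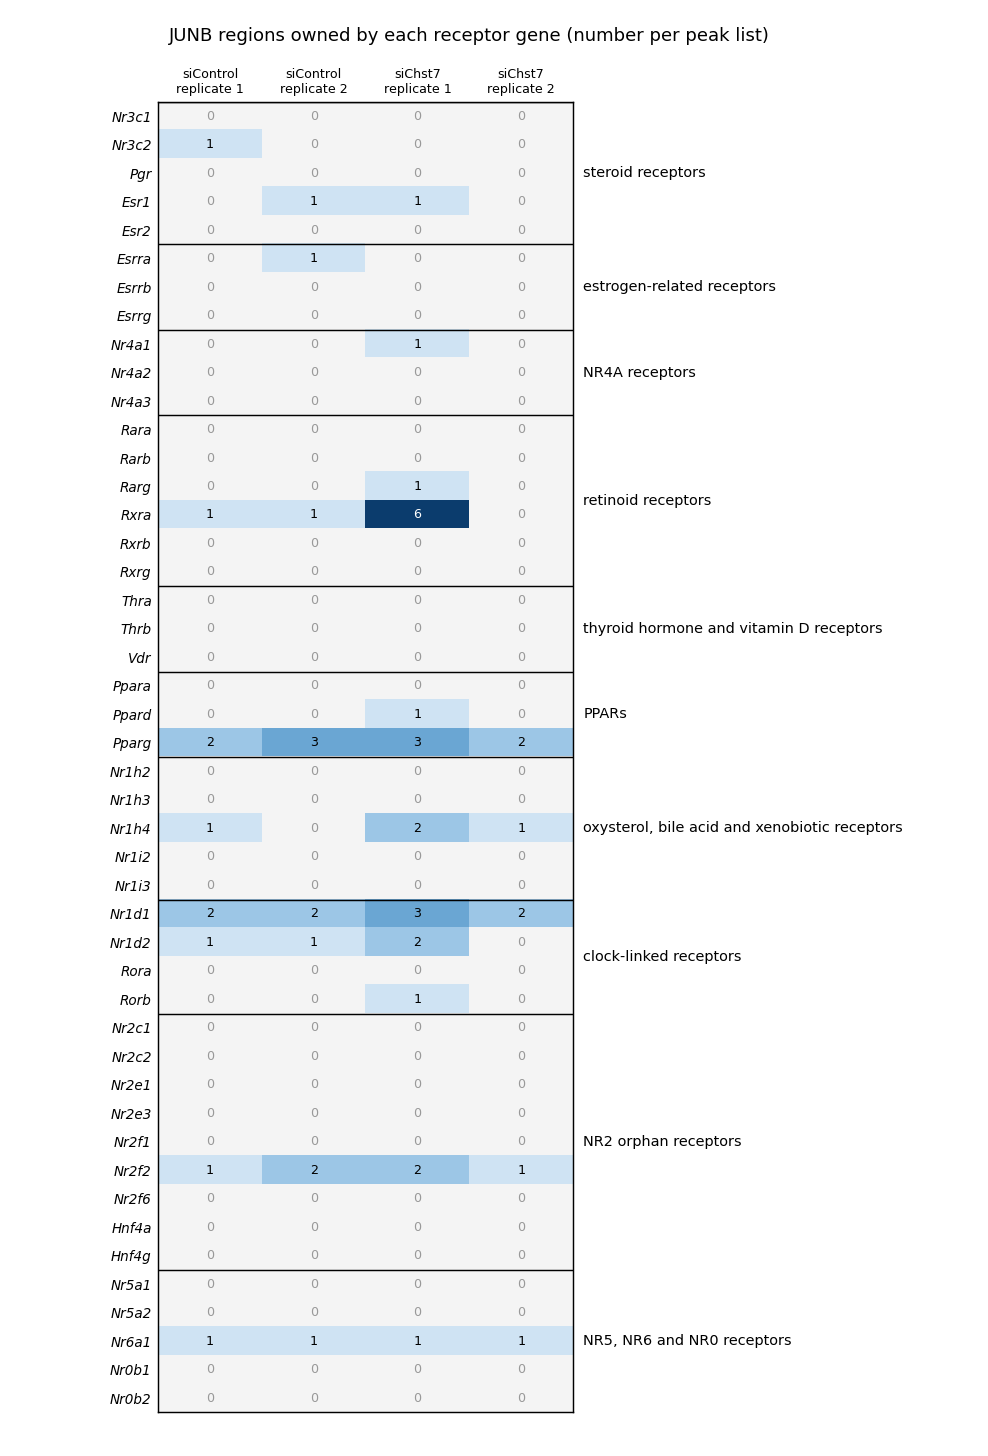
Number of JUNB regions owned by each of the 46 receptor genes (rows, grouped by role) in each of the 4 peak lists (columns); darker cells hold more regions. Pparg, Nr1d1, Nr2f2 and Nr6a1 have a nonzero cell in all 4 columns, for Nr6a1 from 2 separate regions, and Rxra has 6 regions in siChst7 replicate 1 and 0 in siChst7 replicate 2.

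The clock-linked receptors, REV-ERB and ROR proteins that compete for the same DNA sites in the core clock loop, held regions in 3 of 4 genes, where other genes of like territory length would give 1.43. Nr1d1 owned 3 regions, 2 of them common. The upstream region (chr11:98775095-98776375, 1281 bp, mm10) had its summit 0.4 kb before the start and covered the promoter shown above. Its fold enrichment over background, as the authors' peak caller gave it for each peak, was 15.4 and 15.3 in siControl and 22.8 and 16.8 in siChst7, in replicate order. Among the 2410 common gene-owned regions this stood at the 88.4th, 91.3rd, 94.2nd and 95.4th percentile of the respective list. It was the highest receptor-gene region in each of the 4 lists. Both siChst7 folds lay above both siControl folds. The second common region (chr11:98772054-98774192) lay inside Nr1d1, 2.3 kb after the start, and was 2139 bp wide, wider than 97.6% of common gene-owned regions. Its folds were 9.12, 8.45, 16.5 and 12.7, again with the siChst7 values above the siControl values. The summits of its 4 peaks stood 2024, 2769, 2550 and 2119 bp after the start, and with summits alone (100 bp on each side) 1 of the 2 Nr1d1 regions remained common. The other Nr1d1 region was a single peak of siChst7 replicate 1 (fold 4.61) that lay in the body of the neighbouring Thra gene, which overlaps Nr1d1 at one end.

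Nr1d2, which encodes REV-ERBβ, owned 2 regions with lower folds. The region at the far end of the gene (chr14:18204122-18204734), 0.3 kb inside it, had folds of 5.75 and 6.56 in siControl and 7.25 in siChst7 replicate 1, and was not called in siChst7 replicate 2. Its other region, over the promoter, was called in siChst7 replicate 1 alone with a fold of 5.35. Rorb, a ROR receptor best known from retina and brain, owned 1 region inside the gene with a fold of 4.59 in siChst7 replicate 1. Rora owned none, and a single peak of siControl replicate 1 (fold 4.19) lay inside this long gene, 288.5 kb from its nearer end.

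**Figure D2:**
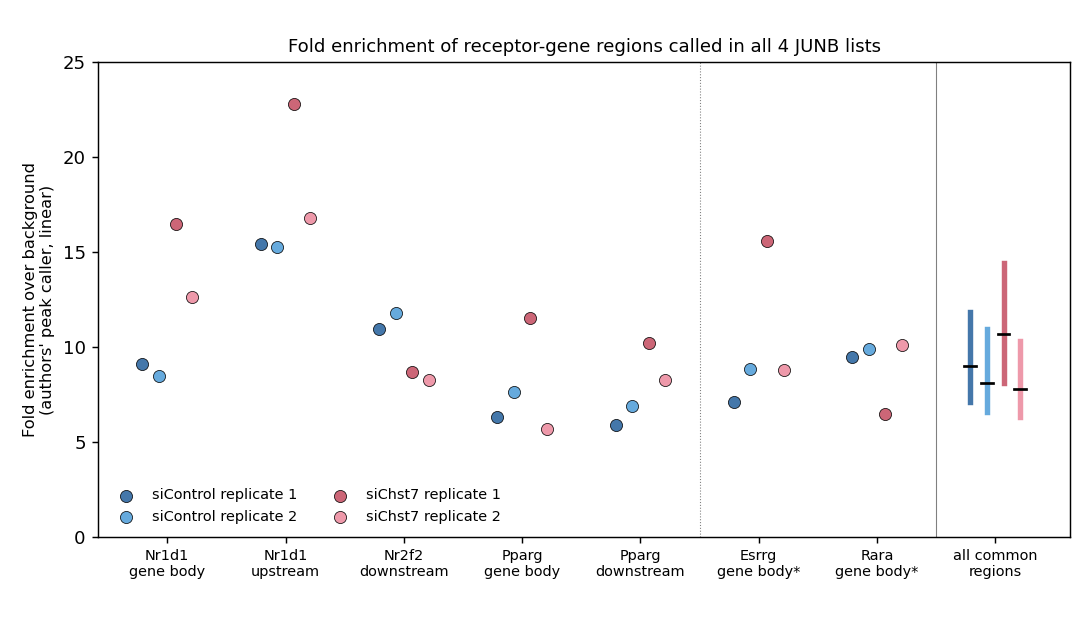
Fold enrichment (linear axis, authors' peak caller) of receptor-gene regions called in all 4 lists, 1 point per library; an asterisk marks 2 regions inside a receptor gene that the nearest gene end does not give to it, and the bars at the right show the middle 50% and the black ticks the median of the 2410 common gene-owned regions in each list. The upstream Nr1d1 region, from 15.3 to 22.8, lies above the medians of 7.76 to 10.7.

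Among the PPARs, fatty acid sensors that pair with RXR, Pparg had 2 common regions at its far end. PPARγ is the receptor that drives fat cell differentiation and is known to restrain fibroblast activation. The first region (chr6:115479934-115480485) lay inside the gene, 10.1 kb from its far end, with folds of 6.33 and 7.63 in siControl and 11.5 and 5.68 in siChst7. The groups overlapped, siChst7 replicate 1 giving the highest value and siChst7 replicate 2 the lowest. The second region (chr6:115493065-115494199) lay 3.0 kb beyond the far end, with folds of 5.90 and 6.87 in siControl and 10.2 and 8.23 in siChst7. Here both siChst7 values were above the siControl values. Both regions were nearer to Pparg than to any other gene. With 50% reciprocal overlap, or with summits alone, 1 of the 2 remained common. Before its start, Pparg owned a peak 9.4 kb away in siControl replicate 2 (fold 5.59) and a peak 38.0 kb away in siChst7 replicate 1 (fold 5.08). Ppard, the widely expressed PPAR, owned 1 region in siChst7 replicate 1 (fold 8.17, inside the gene), and Ppara owned none. Of the 3 PPAR genes 2 thus owned a region, against a territory-matched 1.11.

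**Figure D3:**
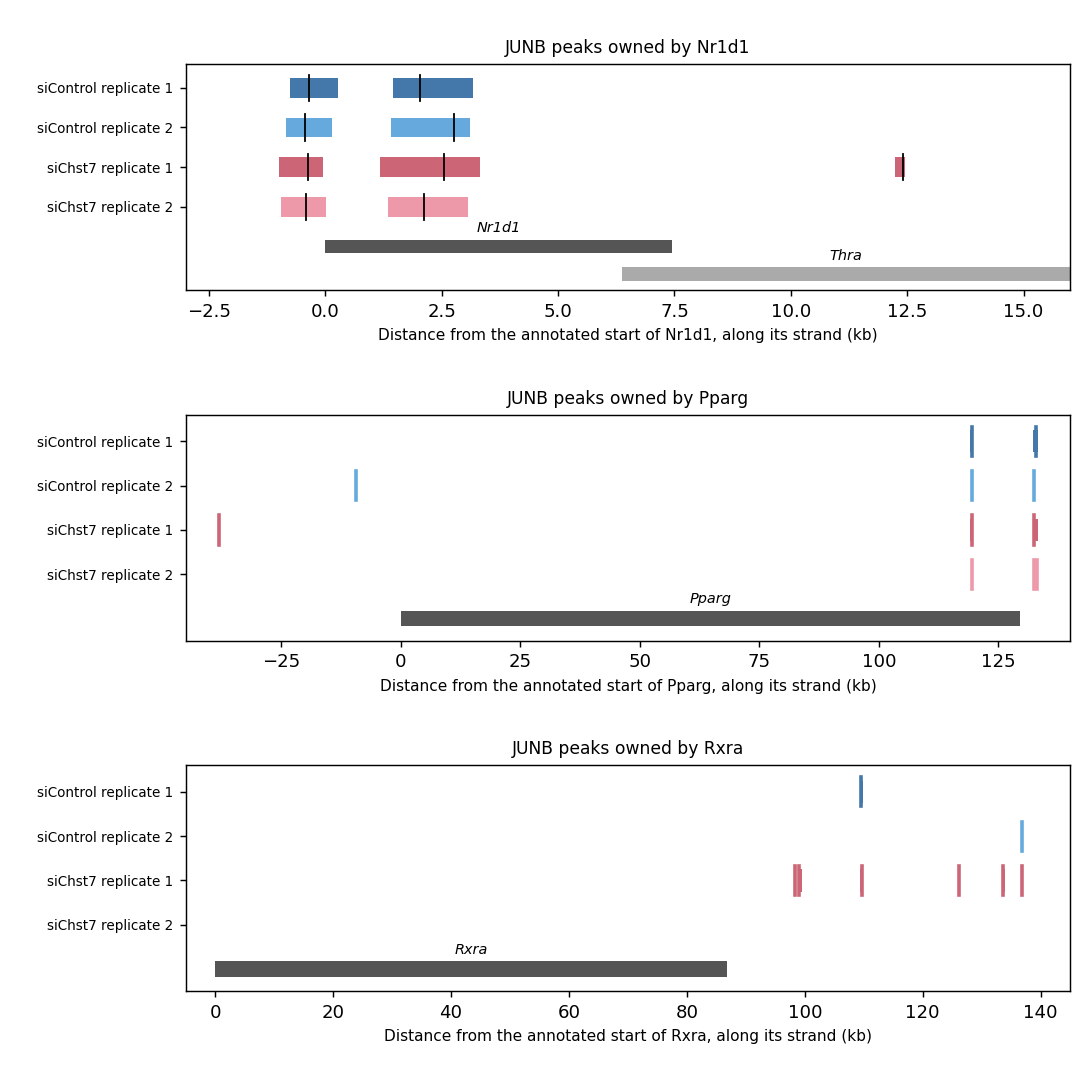
Peaks owned by Nr1d1, Pparg and Rxra in the 4 lists, drawn to scale against the distance from each gene's annotated start along its strand (kb); coloured bars are peaks, vertical ticks their summits and grey bars the genes. Peaks of all 4 lists line up at the start of Nr1d1 and at the far end of Pparg, while 6 peaks beyond Rxra stand in siChst7 replicate 1 and 0 in siChst7 replicate 2.

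Of the 9 NR2 orphan receptor genes, Nr2f2 alone owned regions, where other genes of like territory length would give 2.58. It encodes COUP-TFII, a repressor and activator of vascular and mesenchymal development. Its common region (chr7:70266776-70267446) lay 84.7 kb beyond the far end of the gene, the largest distance among the 28 receptor-gene regions and the nearest to the 100 kb limit. The next gene, Gm44812, was 241.9 kb away. Folds were 11.0 and 11.8 in siControl and 8.65 and 8.23 in siChst7, so that here both siChst7 values were below the siControl values. A second region 47.3 kb beyond the gene was called in siControl replicate 2 (fold 6.83) and siChst7 replicate 1 (fold 6.35). Just outside the limit, a region 111.0 kb from the nearer end of Esr1 and inside that gene had folds of 4.96 in siControl replicate 1 and 6.35 in siChst7 replicate 1. Nr2c1, Nr2c2, Nr2e1, Nr2e3, Nr2f1, Nr2f6, Hnf4a and Hnf4g owned none.

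Retinoid receptors, which bind vitamin A derivatives and, as RXR, pair with many other receptors, owned 7 regions, and siChst7 replicate 1 held all 7, a list that held 79.7% of all gene-owned regions. Of the 6 genes 2 owned a region, against a territory-matched 1.74. Rxra, the RXR gene expressed in most tissues, owned 6 of them, the most of any receptor gene. They lay 11.4 to 50 kb beyond its far end, between Rxra and Col5a1, a fibrillar collagen gene. siControl replicate 1 and siControl replicate 2 each had 1 of the 6, and siChst7 replicate 2 had 0. Folds ran from 3.51 to 7.35, and 2 regions were in more than 1 list. One of these (chr2:27785765-27786289) had 6.53 in siControl replicate 1 and 4.87 in siChst7 replicate 1, and the other (chr2:27813039-27813443) had 4.97 in siControl replicate 2 and 3.51 in siChst7 replicate 1. Rarg, the retinoic acid receptor prominent in skin and mesenchyme, owned a peak of siChst7 replicate 1 (fold 4.58, inside the gene). Rara, Rarb, Rxrb and Rxrg owned none.

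Among receptors for oxysterols, bile acids and foreign compounds, Nr1h4 owned 2 regions and the other 4 genes none, against a territory-matched 1.01 genes of 5. Nr1h4 encodes FXR, the bile acid receptor of liver and intestine. The region at chr10:89526930-89527452 lay inside the gene model, 20.4 kb before the start in the promoter table, and had folds of 6.93 in siControl replicate 1 and 7.51 and 8.90 in siChst7. It was not called in siControl replicate 2. Its neighbour (chr10:89531181-89531629) was called in siChst7 replicate 1 alone (fold 4.68).

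Steroid receptor genes owned 2 regions and no common one, and the 2 owners of 5 genes stand beside a territory-matched 1.99. Esr1, the oestrogen receptor α gene, owned a region 9.2 kb after its start (chr10:4620640-4621289) with folds of 7.18 in siControl replicate 2 and 6.53 in siChst7 replicate 1. Nr3c2, the mineralocorticoid receptor gene, owned a peak of siControl replicate 1 (fold 6.44). Nr3c1, the glucocorticoid receptor gene (chr18:39410545-39519421) and the best known partner of AP-1 in repression, owned none in any list. The nearest common region (chr18:39390419-39391576) lay 19.5 kb outside it and was owned by Arhgap26, with folds of 10.3 and 9.32 in siControl and 9.55 and 5.37 in siChst7. Pgr and Esr2 owned none. Of the estrogen-related receptor genes, Esrra owned a peak over its promoter in siControl replicate 2 (fold 6.21). A region 0.3 kb before its start (chr19:6922171-6922576), which begins at the base after that peak, was called in siControl replicate 1 (fold 7.71) and siChst7 replicate 2 (fold 5.05), and one 1.0 kb before its start in siChst7 replicate 1 (fold 5.19). Both were owned by the neighbour Catsperz, so each of the 4 lists had a peak within about 1.0 kb of the Esrra start, though not at the same place. Esrrb and Esrrg owned none, so that 1 of 3 estrogen-related receptor genes owned a region, against a territory-matched 0.96.

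The immediate-early NR4A genes owned 1 region among them, so that 1 of 3 genes had one, against a territory-matched 0.97. Nr4a1 (NUR77) had a peak in siChst7 replicate 1 (fold 5.19), 7.3 kb before its annotated start and 20.3 kb before the start in the promoter table. The nearest region of any list was 115.5 kb from Nr4a2 and 402.9 kb from Nr4a3. Thra, Thrb and Vdr, the thyroid hormone and vitamin D receptor genes, owned none, against a territory-matched 0.88 genes of 3. In the last group, Nr6a1, which encodes the germ cell nuclear factor GCNF, owned a region 51.9 kb inside the gene (chr2:38874157-38874686) with folds of 6.17 in siControl replicate 2 and 5.59 and 9.21 in siChst7. It also had the promoter peak of siControl replicate 1 (fold 6.71). The steroidogenic and pluripotency receptors Nr5a1 and Nr5a2 and the receptors Nr0b1 and Nr0b2, which lack a DNA-binding domain, owned none. In this last group 1 of 5 genes thus owned a region, against a territory-matched 1.6. Of the 32 genes without a region, 11 had a region of another owner, or of none, inside the gene or within 20 kb, and 14 were over 100 kb from any region.

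Giving a region to its nearest gene end passed over regions that lay within receptor genes. There were 11 such regions in 8 genes, and 2 of them were common. One stood inside Rara, the retinoic acid receptor α gene (chr11:98933149-98934198), and went to the predicted gene Gm46294, whose end lies inside Rara. The region lay 5.8 kb after the annotated start but before every Rara promoter in the promoter table, the first of which begins at chr11:98937446. Its folds were 9.45 and 9.88 in siControl and 6.48 and 10.1 in siChst7. The other stood inside Esrrg, an orphan receptor gene of oxidative tissues (chr1:187910426-187911411), 302.3 kb from its nearer end and so beyond the limit. Its folds were 7.12 and 8.84 in siControl and 15.6 and 8.78 in siChst7. A region in Thrb (8.38 and 7.73 in siControl, 6.81 in siChst7 replicate 1) and 1 in Rarb (4.4 and 4.87 in siControl, 5.68 in siChst7 replicate 1) were missing from siChst7 replicate 2. Common regions also lay 4.0 kb beyond Rarg (owned by Itgb7, folds 8.99 to 15.6) and 3.1 kb beyond Nr2f6 (owned by Ocel1, folds 6.11 to 15.0).

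With each region given to every gene body within 5 kb instead, the counts were higher and the set of genes differed. A region in both siControl lists then went to 10 receptor genes (21.7%), against 9.34% of all genes, and a region in both siChst7 lists to 9 (19.6%), against 9.39%. Other genes of like gene length (10 classes) would give 6.57 and 6.69. Esrrg, Nr1d1, Nr2f6, Pparg, Rara, Rarg and Thra were the 7 genes with a common region, against a length-matched 4.94, of which Nr1d1 and Pparg also had one by nearest end. Thra had it through the Nr1d1 region, since that region lies within 5 kb of both.

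No receptor-gene region had both libraries of one siRNA group and neither of the other group. The siControl-only count was 0 of 28, against 1.59% of 11011 gene-owned regions, and the siChst7-only count was also 0, against 3.74%. A count of 0 of 28 allows a share of up to 10.7%, taken as 3 counts of 28 (the rule of 3). This limit covers counting error only and treats the regions as independent, though 6 of them belong to Rxra. Both siControl lists held 6 of the 28 regions (21.4%, against 31.0% of gene-owned regions), both siChst7 lists held 7 (against 31.5%), and all 4 lists held 5 (17.9%, against 21.9%). The summit was within 1 kb of an end of its owner in 5 (17.9%, against 13.9%). Of the 28 regions, 16 were in a single list (57.1%, against 46.8%), and 12 of these were in siChst7 replicate 1 alone (42.9% of 28, against 29.4%). Several of these 12 regions were owned by Rxra, so they are not spread evenly over the receptor genes. Without siChst7 replicate 2, 12 receptor-gene regions were siChst7-only by the remaining list (42.9%, against 34.3% of all gene-owned regions). Without siControl replicate 1, and likewise without siControl replicate 2, 2 were siControl-only (7.69%, against 8.29% and 10.5%) and 1 was siChst7-only (3.85%, against 8.10% and 6.24%). Without siChst7 replicate 1, 1 was siControl-only (6.25%, against 12.1%).

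The share of a list's peaks whose summit went to a receptor gene was 0.155% (10 peaks) and 0.206% (12) in siControl and 0.236% (24) and 0.169% (8) in siChst7. The exact Clopper-Pearson 95% intervals, 0.0742 to 0.284%, 0.106 to 0.359%, 0.151 to 0.351% and 0.0730 to 0.333%, all overlapped. These intervals cover counting error only and treat the peaks of a list as independent, though 6 of the 24 in siChst7 replicate 1 belong to Rxra. The means were 0.180% ± 0.0363 (SD, n = 2) and 0.203% ± 0.0475 (SD, n = 2), a difference of 0.0223 percentage points, smaller than the spread within either group (two-sided exact permutation p = 0.667, where 2 against 2 libraries can give no p below 0.333). The difference turned to −0.0211 at equal list length, −0.0143 with peaks of at least 5-fold, −0.0034 without siControl replicate 1 and −0.0113 without siChst7 replicate 1. The labels call the replicates biological and do not say whether they were separate cultures, so the p-value measures the spread between these libraries.

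Among the 5 common regions the siChst7 folds were both above the siControl folds in 3 (the Nr1d1 regions and the Pparg region beyond the gene), both below in 1 (Nr2f2) and overlapping in 1. Over all 2410 common gene-owned regions the siChst7 folds were both above in 22.0% and both below in 12.3%. Folds are each list's own values, and differences between lists were not tested.

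Genes that work with nuclear receptors were set beside them. Other genes of like territory length would give 5.85 to 11.9% with a common region, depending on the list. The lists are described by their counts, with no test. Of 12 coactivator genes 2 owned a common region (16.7%), Ppargc1a (PGC-1α; chr5:52035033-52035846, folds 10.2 to 13.1) and Ncoa2. Hsp90aa1, which holds steroid receptors ready for ligand, was the 1 of 7 chaperone genes with a common region, 3.0 kb away with folds of 16.5 to 25.7. Of 11 retinoid-handling genes Crabp1 had one, and of 12 target genes of LXR and PPAR 0 had one.

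Clock genes and glucocorticoid target genes had the highest shares of the 6 related lists. Of 14 circadian clock genes 7 owned a common region (50%, territory-matched 10.1%): Arntl, Npas2, Per1, Per2, Per3, Hlf and Nfil3. The best-ranked region of Npas2, inside the gene (chr1:39256288-39257252), had folds of 14.4 to 22.1. That of Arntl, the BMAL1 gene that REV-ERB proteins repress, lay 30.7 kb outside the gene and had folds of 11.9 to 18.7. Of 10 glucocorticoid target genes 5 owned a common region (50%, territory-matched 11.4%): Dusp1, Errfi1, Nfkbia, Per1 and Sgk1. The best-ranked region of Errfi1, a feedback inhibitor of the EGF receptor (chr4:150798686-150800460), lay 54.2 kb outside the gene and had folds of 21.5 to 36.6. Dusp1 and Sgk1 owned 4 common regions each. Per1 stands in both lists, and several of these genes are known to respond to growth factors as well as to hormone.

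**Figure D4:**
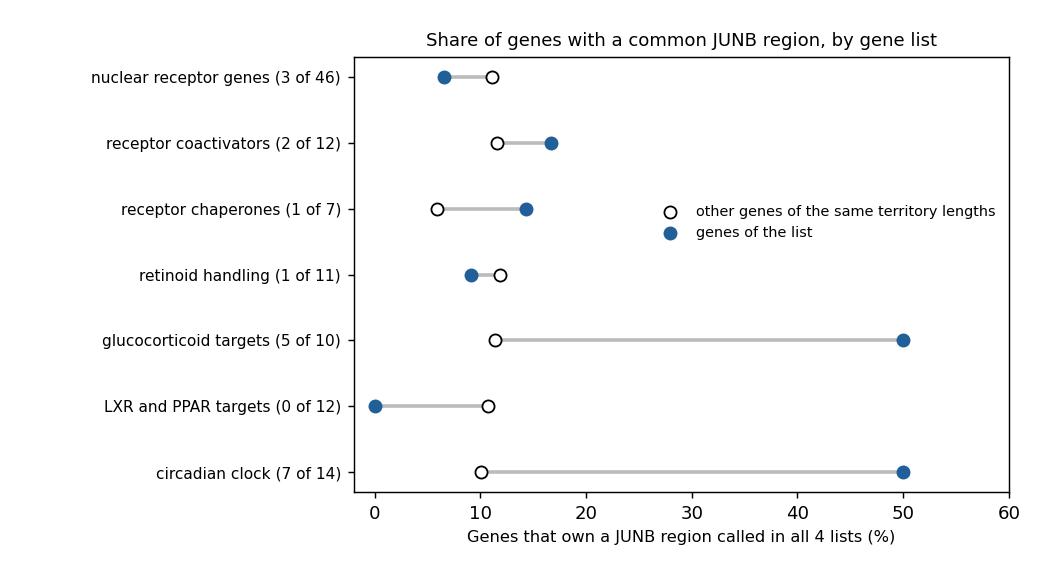
Share of genes that own a common JUNB region (filled points, %) for the 46 nuclear receptor genes and 6 related gene lists, beside the share for other genes of the same territory lengths (open points). Receptor genes stand at 6.52% against 11.1%, circadian clock genes at 50% against 10.1% and glucocorticoid targets at 50% against 11.4%.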

How the data were processed

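JUNB CUT&RUN was analysed in 4 libraries, 2 per siRNA. Per the submitters' processing notes, Bowtie2, MACS3 and mm10 were used; their versions and settings, and whether IgG served as control, are not given in the sources used here. The authors deposited 1 list per library, matched to samples by its peak names. In the deposited lists, fold enrichment is a ratio, p-value and q-value are −log10, the score is 10 times −log10 q as a whole number, and the lowest −log10 q is 2.00 to 2.02. These values describe single peaks and come from the authors' caller, so they rank peaks only within a list.

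Peaks overlapping by 1 bp were joined, and a region took the median summit. Coordinates are 1-based. Genes came from RefSeq GRCm38.p6 (21896 protein-coding genes; all 46 matched). That table has no strands, so strands came from the promoter table where it lists a gene, and assignment by transcription start over all genes was not run. Territory-matched numbers sum, over the genes of a list, the share of other genes with a region in the same class (of 10) of territory length. Shares of peaks were compared by exact permutation of the libraries. The joining and assignment were tested on simulated data. Named were all receptor genes with a common region, group-only regions and peaks at gene starts; the members of 6 pathway lists with a common region (the 5 marker lists by count alone); and, in addition, regions chosen after their values were seen. A few further genes and lists are not reported here. Members and lists were chosen with earlier results of these data known. Alternatives are given below. The tools were pandas 2.3.3, SciPy 1.17.1, NumPy 2.4.6 and Matplotlib 3.10.9 under Python 3.11.15.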

Additional observations from a re-analysis of the deposited data

How the results depend on the processing

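The 5 common regions of receptor genes stayed between 3 and 8 over the alternatives: 3 with summits alone, 8 with gene bodies and 5 kb, and 5 to 6 when 1 library was left out. Receptor genes with a region in both siControl lists numbered 10 with gene bodies and 5 kb and 4 to 8 without 1 library. With gene bodies alone they numbered 7 (15.2%, against 6.77% of all genes and a length-matched 5.48). They numbered 3 (6.52%) with 50% reciprocal overlap, with summits alone and within 20 kb. Of all genes 9.33%, 9.55% and 7.38% then owned one, and the territory-matched numbers were 5.73, 5.83 and 3.89. Receptor genes with a region in both siChst7 lists numbered 9 with gene bodies and 5 kb and 5 to 12 without 1 library. Within 20 kb they numbered 3 (6.52%, against 7.48% of all genes and a territory-matched 3.99). The siControl-only count was 0 to 2 and the siChst7-only count 0 to 12 without 1 library, where a region needs 1 list of its own group. These 2 counts were 0 in the other 9 alternatives. The difference in the share of peaks was −0.0143 points with a fold of at least 5, −0.0211 at equal list length, −0.0063 with gene bodies and 5 kb, −0.029 with gene bodies alone, and −0.0113 to 0.0559 without 1 library. The cause of these changes of sign was not tested. Assignment by nearest transcription start was not run, since the gene table gives no strands. Nr1d1 and Pparg owned a common region in every alternative run, and Nr2f2 owned one in all but assignment within 20 kb and both gene body rules. The gene body rule without a flank and a gene table without predicted genes, which gave 6 genes for each group, were chosen after seeing the data. With the latter, 6 genes were 13.0% of receptor genes, against 11.7% of all genes for siControl and 12.0% for siChst7. The territory-matched numbers were 7.23 and 7.5, so the 6 genes were fewer than other genes of like territory length would give. With the replicate number as a block the difference was 0.0223 points (exact sign-flip permutation p = 1, smallest possible 0.5), and without it the permutation of libraries gave p from 0.333 to 1 over the alternatives. Over 2410 common regions the fold deviations of same-numbered libraries correlated at r = 0.06. Whether same-numbered libraries were made together is not stated in the labels, and 1 correlation of folds cannot show it.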
